A study of Caenorhabditis elegans with 6 samples.

Results

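Chromosome II of C. elegans carried 3086 of 17207 nuclear H3K18ac peaks and 3189 of 17763 nuclear H3K27ac peaks in the deposited tables. All unique peaks placed on it were taken, and each was put by its midpoint into 1 of 16 bins of 1 Mb, counted from the left end. Bins 1 to 5 (0 to 5 Mb) are called the left arm, bins 6 to 12 (5 to 12 Mb) the centre, and bins 13 to 16 (12 to 15.28 Mb) the right arm. Coordinates follow the build WBcel235, also called ce11.

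Worms of the wild-type strain N2, described in the series' design as carrying an hsp-6::GFP reporter of mitochondrial stress, ate E. coli HT115 from the egg until the late larval or young adult stage at 20 °C. In the cco-1 RNAi groups 50% of the bacteria carried the cco-1 clone and the rest empty vector, and in the empty vector groups all bacteria carried empty vector. The gene cco-1 encodes a subunit of cytochrome c oxidase in the mitochondrial electron transport chain. Chromatin of whole worms was fixed with 1% formaldehyde for 30 min and precipitated with an antibody against H3K18ac or H3K27ac, giving 1 library for each mark and condition. With 1 library per group there is no replicate error, so every difference below is a description of 2 libraries, with no test. The 2 input libraries were not analysed here.

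Acetylation of lysines 18 and 27 of histone H3 is laid down by CBP/p300 enzymes and is found at active promoters and enhancers. The autosomes of C. elegans have no single centromere. Their centres hold many conserved and essential genes, recombine rarely and are rich in broadly expressed genes, whereas the arms recombine often, contact the nuclear lamina and hold repeats, pseudogenes and large, young gene families. Such families on the arms include F-box proteins, which bring substrates to ubiquitin ligases, MATH and BTB proteins, which do so for ligases built on cullin 3, C-type lectins, which share a carbohydrate-binding fold, and chemoreceptors of sensory neurons.

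The libraries held 8948860 (cco-1 RNAi) and 8293828 (empty vector) counts in H3K18ac peaks, and 11593321 (cco-1 RNAi) and 11556404 (empty vector) in H3K27ac peaks. Counts were expressed per 1000000 in nuclear peaks (CPM), and all ratios put cco-1 RNAi on top, on the log2 scale and without a pseudocount. Chromosome II took 17.1% of the H3K18ac counts under cco-1 RNAi and 17.6% under empty vector, and 16.6% and 17.4% of the H3K27ac counts in the same order. Its median peak had 289 counts under cco-1 RNAi and 277 under empty vector for H3K18ac, and 293 and 355 for H3K27ac. Counting error alone then gives a ratio a relative error of 8.41% and 7.89%. The peak assigned to cco-1 itself, on another chromosome, was 8.32-fold higher in H3K18ac and 3.15-fold higher in H3K27ac under cco-1 RNAi. The bacteria of these groups carried a clone of this gene, and whether its DNA added to these counts was not tested. Of 13 marker genes of the germline and oocyte, 8 had an H3K18ac peak. They summed to 394 CPM under cco-1 RNAi and 500 CPM under empty vector, and 2 were at least 1.5-fold lower. For H3K27ac, 11 of 13 genes had a peak. They summed to 834 and 1344 CPM, and 8 were at least 1.5-fold lower. Over all nuclear peaks 13.2% were that much lower in H3K18ac and 23.1% in H3K27ac. Intestinal markers summed to 341 and 287 CPM for H3K18ac (4 of 8 genes with a peak). For H3K27ac they summed to 404 and 266 CPM (6 of 8 genes), with 1 gene at least 1.5-fold higher and 1 lower. Sperm markers summed to 887 and 1070 CPM (22 of 84 genes) and to 901 and 1086 CPM (27 of 84). Body wall muscle markers summed to 387 and 503 CPM (3 of 5 genes) and to 324 and 359 CPM (4 of 5). Hypodermal markers summed to 312 and 410 CPM (4 of 5) and to 247 and 345 CPM (4 of 5). Neuronal markers summed to 256 and 181 CPM (5 of 5) and to 324 and 247 CPM (4 of 5). In H3K18ac, 3 sperm, 1 muscle, 3 hypodermal and 0 neuronal markers were at least 1.5-fold lower. In H3K27ac these numbers were 10, 1, 2 and 0. Of the neuronal markers 2 (H3K18ac) and 1 (H3K27ac) were at least 1.5-fold higher. In whole worms, fewer cells with a mark and less acetylation per cell cannot be told apart, and the part of these marker differences in the results below was not tested.

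Peaks were densest at the right end and sparsest in the centre. The left arm had 204 H3K18ac peaks per Mb and the right arm 284, against 162 in the centre. For H3K27ac the left arm had 215 and the right arm 283 peaks per Mb, against 169 in the centre. Both arms together had 1.46 times (H3K18ac) and 1.43 times (H3K27ac) the density of the centre. Single bins ran between 133 peaks per Mb in bin 10 and 315 in bin 16 for H3K18ac, and the centre ended with a dense bin 12 of 233 peaks. Gene density ran the other way on the right arm, which had 171 protein-coding genes per Mb, against 246 on the left arm and 237 in the centre. The right arm thus had 1.66 H3K18ac peaks per protein-coding gene, the left arm 0.83 and the centre 0.68.

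Position relative to gene starts differed along the chromosome in the same way for both marks. Of the H3K18ac peaks, 60.1% of those on the left arm and 49.8% of those on the right arm lay within 1 kb of the start of the gene assigned by the authors, against 72.6% in the centre. For H3K27ac these shares were 62.1% and 49.4% on the arms, against 72.9% in the centre. H3K18ac peaks were also narrower on the arms, with median widths of 469 bp (left) and 513 bp (right), against 548 bp in the centre.

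Peak strength under empty vector differed between arms and centre in H3K18ac more than in H3K27ac. The median H3K18ac peak had 37.3 CPM on the left arm and 38.3 CPM on the right arm, against 26.6 CPM in the centre, so the arms stood at 1.42 times the centre. The median H3K27ac peak had 29.2 CPM on the left arm and 34.6 CPM on the right arm, against 28.9 CPM in the centre, a factor of 1.09 for both arms. Counted per Mb of sequence, with density and strength together, the arms held 1.66 times the H3K18ac signal and 1.30 times the H3K27ac signal of the centre. At overlapping peaks the balance of the marks under empty vector followed the same division: the median log2 ratio of H3K18ac over H3K27ac was 0.34 on the left arm and 0.25 on the right arm, against -0.07 in the centre.

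**Figure D1:**
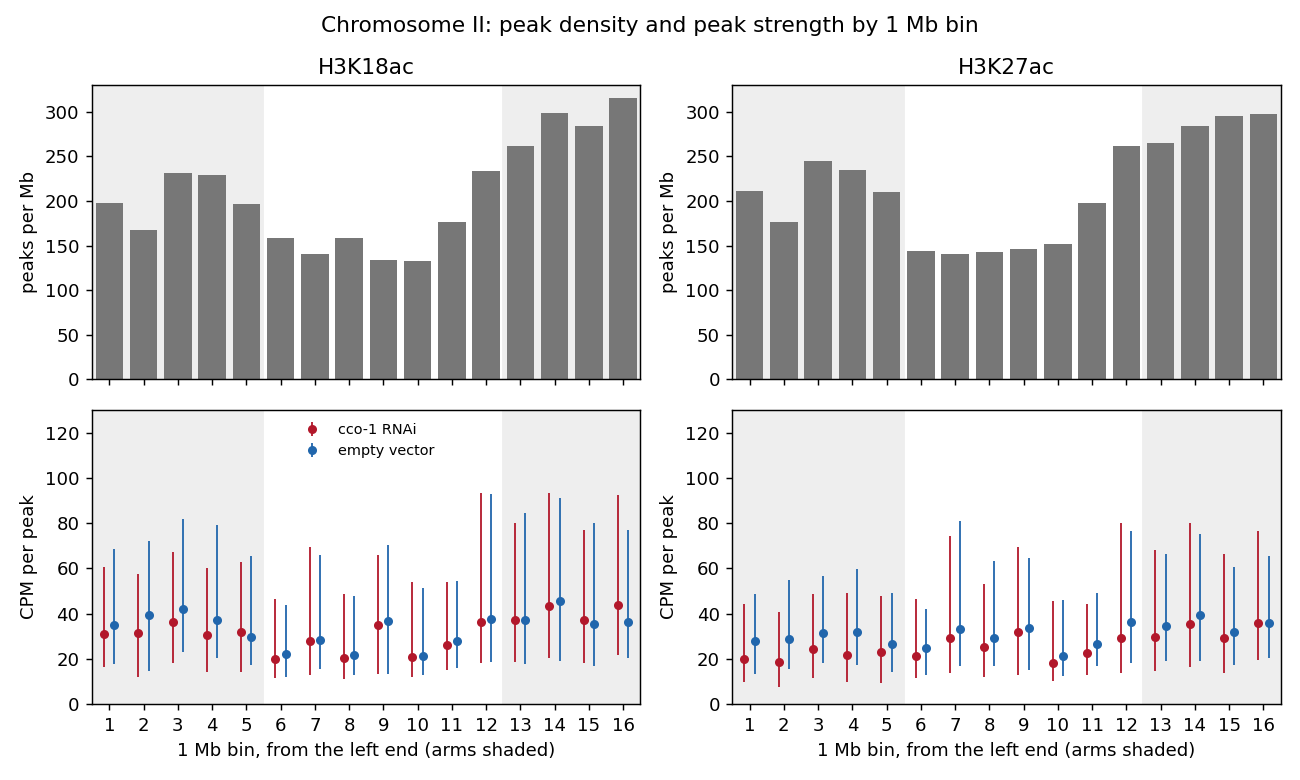
Peaks per Mb (upper panels) and CPM per peak (lower panels, points at the median and lines across the quartiles) in each 1 Mb bin of chromosome II, cco-1 RNAi in red and empty vector in blue, arms shaded. Both marks have their fewest peaks per Mb in the centre and their most in bins 13 to 16. The cco-1 RNAi medians lie below those of empty vector in every bin for H3K27ac. For H3K18ac they do so in all bins except 5, 15 and 16.

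The strongest peaks in empty vector differed by less than 1.5-fold between the libraries. On the left arm the strongest H3K18ac peak lay downstream of Y14H12A.1, with 803 CPM under cco-1 RNAi and 796 CPM under empty vector. In the centre, the peak spanning the small nucleolar RNA gene ZK20.9 was the strongest in both marks, with 848 CPM under cco-1 RNAi and 820 CPM under empty vector for H3K18ac and 1055 and 1278 CPM for H3K27ac. On the right arm the strongest H3K18ac peak was upstream of the chemoreceptor gene sre-47, with 845 CPM under cco-1 RNAi and 937 CPM under empty vector. The strongest H3K27ac peak of the right arm covered hmg-1.1, which encodes a high mobility group box protein, with 1246 CPM under cco-1 RNAi and 1557 CPM under empty vector. On the left arm it covered the piRNA locus 21ur-13751, with 1167 CPM under cco-1 RNAi and 915 CPM under empty vector.

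Under cco-1 RNAi, acetylation of chromosome II was lower on the left arm than elsewhere in both marks. The median log2 ratio of H3K18ac was -0.27 on the left arm and 0.02 on the right arm, against -0.03 in the centre. For H3K27ac it was -0.46 on the left arm and -0.13 on the right arm, against -0.18 in the centre. The left arm thus stood 0.23 (H3K18ac) and 0.28 (H3K27ac) log2 units below the centre, and the right arm stood 0.06 above it in both marks. Both arms as 1 group differed from the centre by only -0.08 and -0.12, because the 2 arms lay on opposite sides of it. The scale matters to the H3K27ac values: the median over all nuclear peaks was -0.19 in H3K27ac and -0.03 in H3K18ac, and relative to those medians the left arm remained low in both marks.

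Of the H3K18ac peaks on chromosome II, 517 (16.8%) were at least 1.5-fold lower under cco-1 RNAi and 235 (7.62%) at least 1.5-fold higher. Over all nuclear H3K18ac peaks 13.2% were lower and 9.16% higher. Of the H3K27ac peaks on chromosome II, 903 (28.3%) were lower and 218 (6.84%) higher, against 23.1% and 8.73% of all nuclear H3K27ac peaks. With the median ratio of all nuclear peaks set to 1, the H3K27ac counts became 615 lower and 391 higher, and without any scaling the H3K18ac counts became 368 lower and 385 higher. On the left arm 304 of 1021 H3K18ac peaks were lower (29.8%) and 51 higher. On the right arm 83 of 932 were lower (8.91%) and 108 higher, and in the centre 130 of 1133 were lower (11.5%) and 76 higher. For H3K27ac the left arm had 449 of 1077 lower peaks (41.7%), the right arm 170 of 927 (18.3%) and the centre 284 of 1185 (24.0%). The left arm, with 33.1% of the chromosome's H3K18ac peaks, held 58.8% of its lower ones, and for H3K27ac 33.8% and 49.7%.

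Within the left arm the lowest medians were those of 3 neighbouring bins. Bins 4, 2 and 3 (1 to 4 Mb) had the lowest medians of the chromosome in both marks, and since they were picked by that value, it describes them and tests nothing. Their H3K18ac medians were -0.51 in bin 4, -0.35 in bin 2 and -0.26 in bin 3, and the next lowest were -0.10 in bins 1 and 11. Their H3K27ac medians were -0.64, -0.60 and -0.44, followed by -0.39 in bin 1 and -0.29 in bin 5. Together bins 2 to 4 held 627 H3K18ac peaks with a median of -0.40, of which 232 (37.0%) were lower and 24 higher. They held 656 H3K27ac peaks with a median of -0.55, of which 311 (47.4%) were lower and 19 higher. The other 2 bins of the left arm had 72 of 394 H3K18ac peaks lower (18.3%) and 138 of 421 H3K27ac peaks (32.8%). Without bins 2 to 4 chromosome II had medians of -0.02 (H3K18ac) and -0.18 (H3K27ac), and the other chromosomes had -0.01 and -0.18. The other chromosomes kept all their bins, low ones included, so these medians are not of like sets. At the right end, bin 16 had the highest medians, 0.12 in H3K18ac and 0.05 in H3K27ac, with 18 of 88 and 14 of 83 peaks higher.

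**Figure D2:**
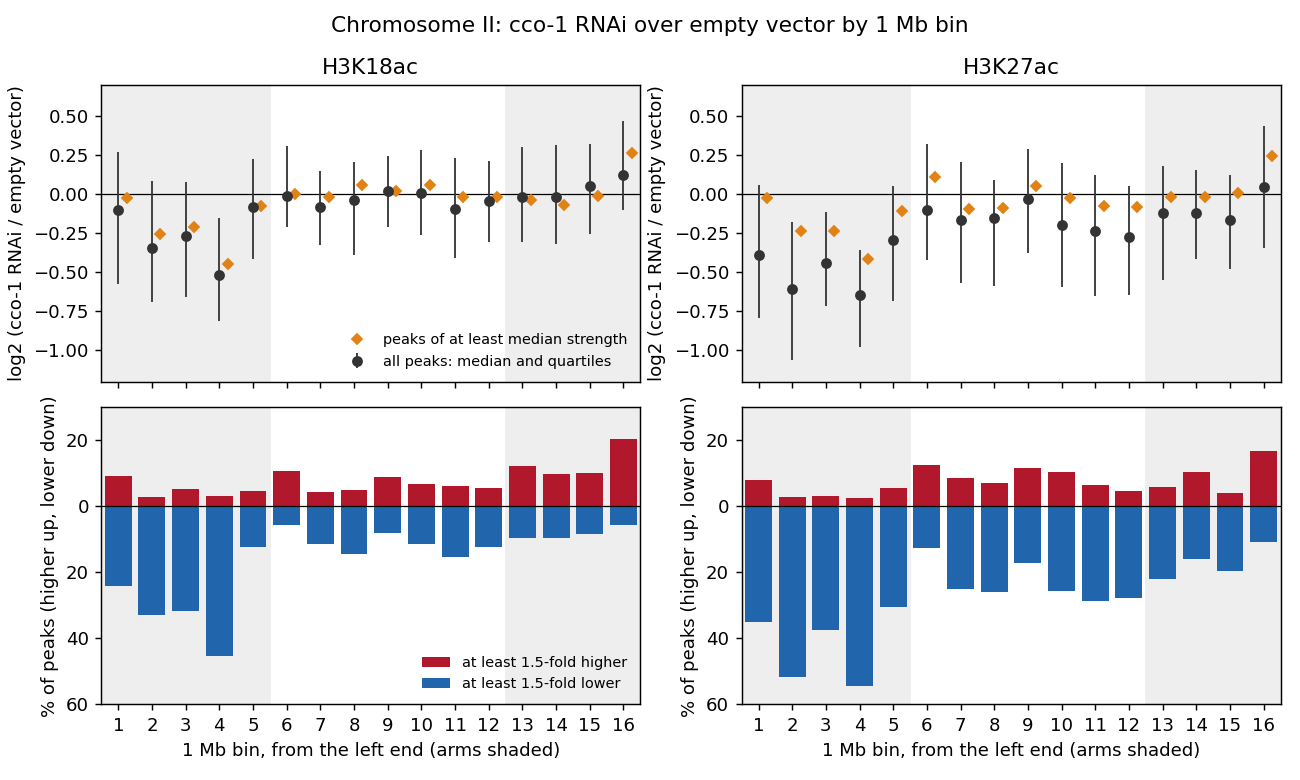
Upper panels: log2 ratio (cco-1 RNAi / empty vector) in each 1 Mb bin of chromosome II (black: median and quartiles of all peaks; orange: median of peaks of at least median strength). Lower panels: share of peaks at least 1.5-fold higher (red, up) and lower (blue, down); bins 2 to 4 have the lowest medians and the largest shares of lower peaks in both marks.

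The profiles of the marks ran in parallel along the chromosome. Over the 16 bins the medians of H3K18ac and H3K27ac had a Pearson correlation of 0.93 and a Spearman correlation of 0.84, and over the 13 bins outside bins 2 to 4 the Pearson value was 0.78. The bins share no library between marks, but whether both marks came from the same worms was not established here. The profiles may therefore not be independent. Most peaks also overlap: 86.9% of the H3K18ac and 83.8% of the H3K27ac peaks on chromosome II shared at least 1 bp with a peak of the other mark. Across 2749 overlapping pairs r was 0.62, with 0.70 on the left arm, 0.50 on the right arm and 0.56 in the centre. On the left arm 172 pairs were at least 1.5-fold lower in both marks, which is 66.7% of the pairs lower in H3K18ac and 54.4% of those lower in H3K27ac. On the right arm 30 pairs were lower in both (54.5% and 24.0%), and in the centre 60 (65.2% and 32.4%). Over all 15026 nuclear pairs 895 were lower in both (54.9% and 32.4%), and r was 0.58.

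Weak peaks had lower ratios than strong ones, above all in H3K27ac, so the bins were also compared within 4 equal classes of peak strength, set by the mean CPM of both libraries over all nuclear peaks. Bins 2 to 4 lay below the rest of chromosome II in each class. Since they were picked by these same ratios, that describes them and tests nothing. Between the weakest and the strongest class, their H3K18ac medians were -0.54, -0.42, -0.42 and -0.15, against -0.09, -0.02, -0.03 and 0.04 in the rest of the chromosome. Their H3K27ac medians were -1.04, -0.63, -0.42 and -0.15, against -0.48, -0.29, -0.08 and 0.05. At median strength or above, 135 of 523 H3K18ac peaks on the left arm were lower and 25 higher, and 90 of 481 H3K27ac peaks were lower and 22 higher. The shares over all nuclear peaks of that strength were 10.8% lower and 9.19% higher for H3K18ac, and 11.2% lower and 9.07% higher for H3K27ac. The right arm and the centre had medians of -0.01 and 0.01 (H3K18ac) and 0.01 and -0.03 (H3K27ac) at that strength, the left arm -0.19 and -0.23.

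**Figure D3:**
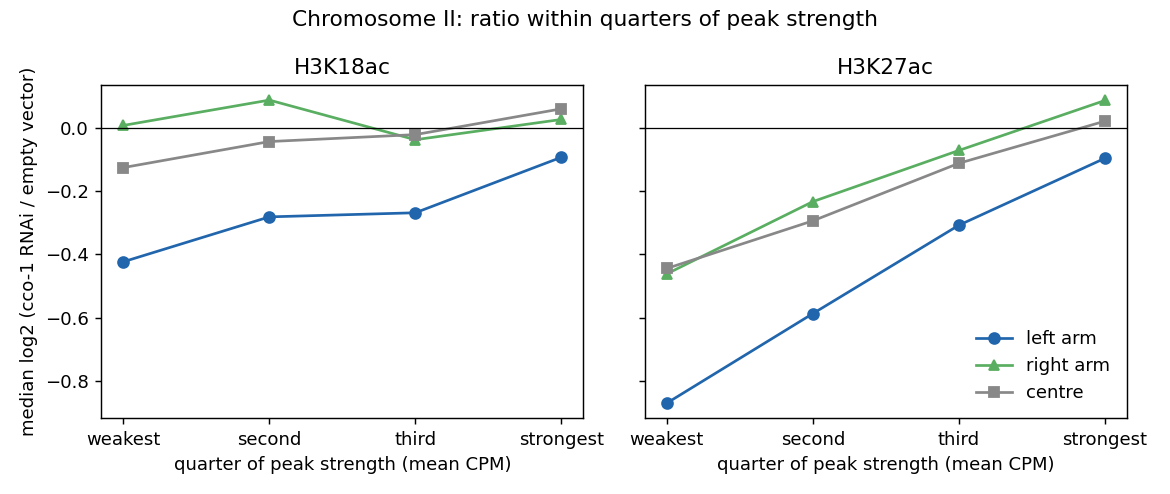
Median log2 ratio (cco-1 RNAi / empty vector) in 4 equal classes of peak strength for the left arm (blue circles), the right arm (green triangles) and the centre (grey squares) of chromosome II. The left arm lies lowest in each class of both marks, and H3K27ac medians climb with strength in all 3 regions.

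Other autosomes also had low stretches. Among 84 autosomal bins of 1 Mb with at least 20 peaks, bin 4 of chromosome II ranked second from the lowest in H3K18ac, after bin 18 of chromosome V (-0.54), and bins 2 and 3 ranked 4 and 6. In H3K27ac bins 4 and 2 of chromosome II were the lowest, bin 3 ranked 6 and bin 1 ranked 8. The remaining places among the 8 lowest bins of both marks were on chromosomes I and V. On chromosome III the medians were 0.03 (H3K18ac, 2994 peaks) and -0.12 (H3K27ac, 3007 peaks).

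At a finer scale the lower peaks of the left arm stood side by side. In windows of 100 kb with at least 5 peaks, 12 of 152 windows had at least 50% of their H3K18ac peaks lower, and all 12 were on the left arm. For H3K27ac this held for 25 of 153 windows, 18 on the left arm, 7 in the centre and 0 on the right arm. Runs of at least 4 neighbouring lower peaks numbered 26 in H3K18ac, of which 22 were on the left arm, 1 on the right arm and 3 in the centre. H3K27ac had 52 such runs, of which 29 were on the left arm, 8 on the right arm and 15 in the centre.

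The lowest window in both marks, at 0.9 to 1.0 Mb, held a cluster of fbxc genes, which encode F-box proteins. All 17 of its H3K18ac peaks were lower, with a median peak of 16.2 CPM under cco-1 RNAi and 33.8 CPM under empty vector and a median log2 ratio of -1.25. Of its 18 H3K27ac peaks 16 were lower, with medians of 12.5 CPM under cco-1 RNAi and 37.9 CPM under empty vector and a median log2 ratio of -1.45. The window lies at the end of bin 1, just outside the 3 lowest bins. It formed the core of the longest H3K18ac run, II:905309-1050151, in which 22 neighbouring peaks over 144.8 kb were all lower. These peaks summed to 489 CPM under cco-1 RNAi and 923 CPM under empty vector. The authors' assignment gave 19 of the 22 to F-box, MATH, lectin or chemoreceptor genes, among them fbxc-29, fbxc-36, clec-43, clec-44, math-34 and fbxb-39.

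The next cluster, of fbxb genes and btb genes, lay at 1.6 to 1.9 Mb in bin 2. It held the longest H3K27ac run, II:1630244-1753439, with 30 neighbouring lower peaks over 123.2 kb, 16 of them at F-box, MATH and BTB or chemoreceptor genes, that summed to 531 CPM under cco-1 RNAi and 989 CPM under empty vector. A second run of 14 peaks followed at II:1759393-1874491 with 114 CPM under cco-1 RNAi and 292 CPM under empty vector. In the window at 1.7 to 1.8 Mb, 10 of 11 H3K18ac peaks and 20 of 21 H3K27ac peaks were lower. Its genes include fbxb-13, fbxb-47, fbxb-53, btb-6, btb-7 and the homeobox gene ceh-81.

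Runs in bin 3 mixed genes of these families with others. At II:2516679-2562179, 9 neighbouring H3K18ac peaks were lower, of which 3 were at the MATH-domain genes bath-12 and bath-13 and the rest at K02F6.1, K02F6.10, K02F6.11 and the neprilysin gene nep-18, with 262 CPM under cco-1 RNAi and 503 CPM under empty vector. At II:2651279-2703418, 13 neighbouring H3K27ac peaks at 10 genes were lower, of which 3 were at the chemoreceptor genes sri-47, sri-59 and sri-60 and the rest at the receptor guanylyl cyclase gene gcy-21, the homeobox gene ceh-87, F22E5.2, F22E5.6, F22E5.17, F34D6.1 and F34D6.10, with 189 CPM under cco-1 RNAi and 377 CPM under empty vector.

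Bin 4 was low also at genes that carry no family name. Its longest run held 14 H3K18ac peaks at II:3596937-3642042, none of them at a gene named for one of the families. They summed to 315 CPM under cco-1 RNAi and 574 CPM under empty vector. The genes there include wago-11, an Argonaute of small RNA pathways, and the M151 genes, and 21 neighbouring H3K27ac peaks were lower over a wider stretch around it, at II:3584977-3676693. A run of 7 H3K18ac peaks at II:3133855-3157994 held 5 at chemoreceptor genes of the sri group, with the others at T10D4.14 and T10D4.16. A run of 12 H3K27ac peaks at II:3374828-3417172 held 2 at the families, at bath-9 and bath-10, and others at genes such as the neprilysin genes nep-6, nep-7 and nep-9.

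In the centre and on the right arm the longest runs of lower peaks were shorter than on the left arm. The longest in the centre held 8 H3K27ac peaks at II:10040262-10087352, with 76.9 CPM under cco-1 RNAi and 202 CPM under empty vector. It covers die-1, which encodes a zinc finger factor of embryonic morphogenesis. The next, with 7 H3K27ac peaks, covered genes such as ZK930.6, linc-47 and mir-44. A run of 5 H3K27ac peaks covered cki-1 and cki-2, which encode inhibitors of cyclin-dependent kinases. Other runs of 5 in the centre covered toe-2, aqp-2, plc-3 and M02G9.5. The longest on the right arm, a run of 6, covered cyd-1, which encodes cyclin D. In the centre 24.0% of the H3K27ac peaks were lower, against 23.1% of all nuclear H3K27ac peaks. At the end of the left arm, 15 of 24 H3K27ac peaks in the window at 4.5 to 4.6 Mb were lower, with genes such as hlh-1, the worm's MyoD factor of body wall muscle, and the ephrin receptor gene vab-1, but only 3 of 18 H3K18ac peaks there were lower.

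**Figure D4:**
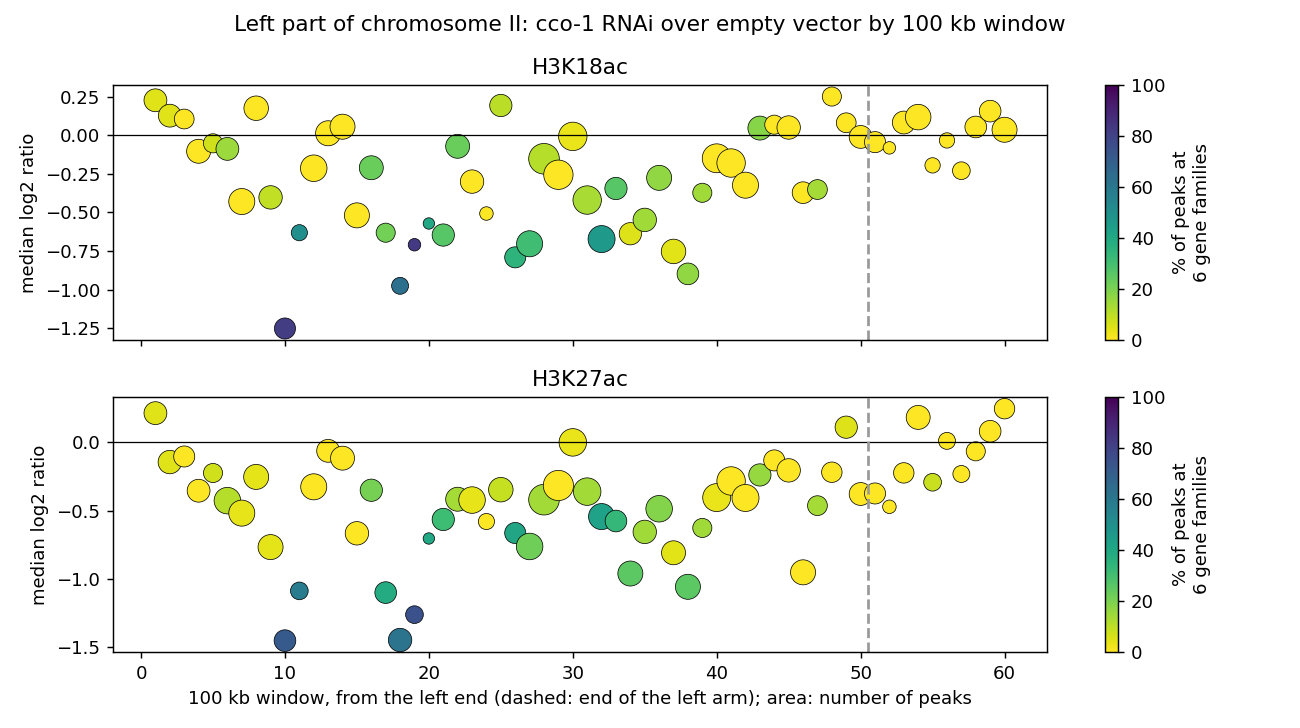
Median log2 ratio (cco-1 RNAi / empty vector) in 100 kb windows 1 to 60 of chromosome II, numbered from the left end, for H3K18ac (upper panel) and H3K27ac (lower panel); the area of a point grows with its number of peaks and its colour gives the share of peaks at the 6 gene families. Windows 10 and 18 are the lowest 2 in both marks and are dark, while window 37 is low in both with few family peaks.

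The genes behind the lower bins were then grouped by 6 families, chosen after the genes of the low windows had been seen: fbxa, fbxb and fbxc (F-box), MATH and BTB, C-type lectins, and chemoreceptors. A peak counts for the gene the authors assigned, even if it lies outside that gene. Membership was read from the prefix of the gene name. Genes with only a sequence name therefore count as outside the families, whatever they encode. In bins 2 to 4, 64 of 94 H3K18ac peaks at these families were lower, with a median log2 ratio of -0.71, and 84 of 118 H3K27ac peaks, with a median of -0.83. The peaks of the same bins outside the families had medians between those of the family peaks and those of the whole chromosome: 168 of 533 H3K18ac peaks were lower (median -0.32) and 227 of 538 H3K27ac peaks (median -0.47). Peaks at genes named for the families therefore made up 27.6% (H3K18ac) and 27.01% (H3K27ac) of the lower peaks in these bins. At the same families on the right arm and in the centre, 10 of 46 H3K18ac peaks (median -0.21) and 14 of 44 H3K27ac peaks (median -0.20) were lower. On the other chromosomes 158 of 510 H3K18ac peaks (median -0.37) and 184 of 504 H3K27ac peaks (median -0.45) at these families were lower. Some members of such families can be close copies of each other, and their sequences were not compared here. How reads that match several copies were counted is not given in the sources used here, which leaves the values of any single member uncertain.

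Among the 6 families, the fbxb genes had the lowest median log2 ratio of bins 2 to 4 in both marks. Of 56 fbxb genes in these bins, 12 had an H3K18ac peak and 23 an H3K27ac peak. All 15 H3K18ac peaks at fbxb genes were lower, with a median of 9.39 CPM under cco-1 RNAi and 22.9 CPM under empty vector and a median log2 ratio of -0.99. For H3K27ac 24 of 26 peaks were lower, with medians of 5.61 and 19.3 CPM and a median log2 ratio of -1.44. Most of these peaks were weak, and 6 H3K18ac peaks and 5 H3K27ac peaks reached the median strength of all nuclear peaks. Among the stronger, fbxb-53 had 48.1 CPM of H3K18ac under cco-1 RNAi and 95.6 CPM under empty vector. The stronger of the 2 peaks at fbxb-112 showed how the marks can differ, with 49.1 CPM of H3K18ac under cco-1 RNAi and 78.1 CPM under empty vector, and 53.6 and 59.3 CPM of H3K27ac. On other chromosomes 14 of 28 H3K18ac peaks at fbxb genes were lower, with a median of -0.55.

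The fbxc genes of bin 1 were also low. Of 14 H3K18ac peaks 13 were lower (median -1.28), and of 13 H3K27ac peaks 11 (median -1.39). The strong member fbxc-57 had 44.7 CPM of H3K18ac under cco-1 RNAi and 75.7 CPM under empty vector, and 41.1 and 108 CPM of H3K27ac. Peaks at 2 genes were not 1.5-fold lower. One was fbxc-54, close to the left end of the chromosome, with 11.8 CPM under cco-1 RNAi and 9.89 CPM under empty vector for H3K18ac and 32.2 and 14.9 CPM for H3K27ac. The other was fbxc-17 in H3K27ac, with 20.4 CPM under cco-1 RNAi and 27.1 CPM under empty vector, although its H3K18ac peak was lower. The few fbxa peaks were mixed. In bins 2 to 4, of 4 H3K18ac peaks 0 were lower and 1 was higher, and of 4 H3K27ac peaks 2 were lower. In bin 1, fbxa-200 was lower in H3K18ac, with 70.6 CPM under cco-1 RNAi and 108 CPM under empty vector, and had 51.8 and 71.3 CPM of H3K27ac.

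Peaks at MATH and BTB genes, at C-type lectins and at chemoreceptors were also low, with some peaks inside the 1.5-fold limits. In bins 2 to 4, 15 of 26 H3K18ac peaks at MATH and BTB genes were lower (median -0.64) and 23 of 33 H3K27ac peaks (median -0.72). Of the lectin peaks 9 of 13 (median -0.77) and 6 of 11 (median -0.61) were lower. Of the chemoreceptor peaks 24 of 34 (median -0.70) and 26 of 40 (median -0.82) were lower, and the sri group made up 15 of these 24. No peak of the 3 families in these bins was 1.5-fold higher in either mark. Genes with an insulin-like receptor domain (irld) had 6 of 9 H3K18ac and 6 of 7 H3K27ac peaks lower. The H3K18ac peak at irld-65 had the lowest ratio of the chromosome, with 0.559 CPM under cco-1 RNAi and 6.99 CPM under empty vector, and it rests on 5 counts under cco-1 RNAi.

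Peaks at nuclear receptor genes in the same bins had medians above 0, unlike their bins. These genes encode transcription factors with a ligand-binding domain. Their 10 H3K18ac peaks had a median log2 ratio of 0.42, with 2 higher and 2 lower, and their 11 H3K27ac peaks a median of 0.03, with 2 higher and 1 lower. The peaks belong to 4 genes and are not independent. The start of nhr-88 had 60.01 CPM of H3K18ac under cco-1 RNAi and 28.1 CPM under empty vector and was 2.102-fold higher in the overlapping H3K27ac peak. Both nhr-257 and nhr-261, in bin 4, had log2 ratios below 0 in both marks.

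**Figure D5:**
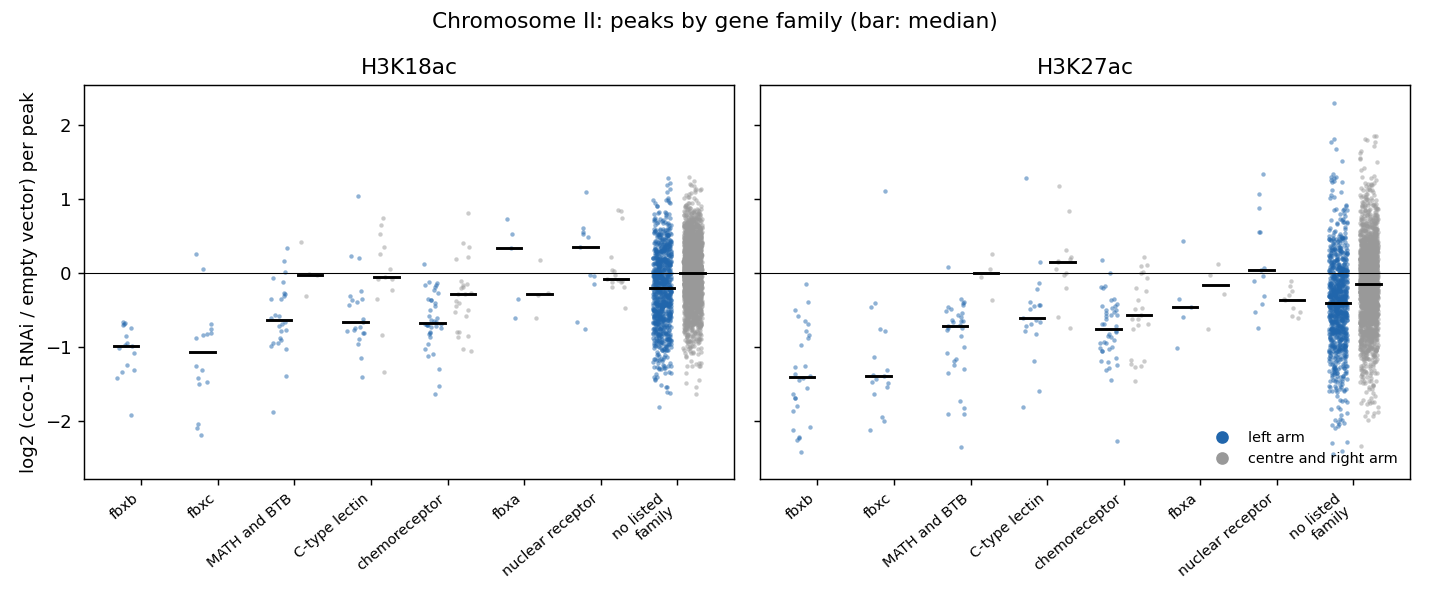
Log2 ratio (cco-1 RNAi / empty vector) for each peak at 7 gene families and at genes of no listed family, on the left arm (blue) and on the centre and right arm together (grey), with black bars at the medians. Peaks at fbxb and fbxc genes lie only on the left arm and mostly below -0.5, while nuclear receptor peaks of the left arm lie mostly at or above 0.

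At median strength or above, the 10 largest falls on chromosome II in H3K18ac were on the left arm for 7 genes, in the centre for 2 and on the right arm for 1, with folds between 0.379 and 0.457. The lowest was the peak upstream of C16C8.10 in bin 4, with 32.0 CPM under cco-1 RNAi and 84.4 CPM under empty vector (0.379-fold, exact 95% interval 0.329 to 0.435 for counting error only). Its neighbour at Y49F6B.13 had 62.0 CPM under cco-1 RNAi and 160 CPM under empty vector, and 0.498 times the empty vector level in H3K27ac. The peak inside srg-20, a chemoreceptor gene in bin 2, had 23.1 CPM under cco-1 RNAi and 56.9 CPM under empty vector. The list also held ZC204.6, sri-63, C32B5.18 and C40A11.4 on the left arm, F14F11.2 and F54D5.5 in the centre, and cnp-2 on the right arm. All 7 genes with an overlapping H3K27ac peak were at least 1.5-fold lower there as well.

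The 10 largest falls in H3K27ac lay on the left arm for 5 genes and in the centre for 5, with folds between 0.233 and 0.336. R07C3.3, inside the fbxc cluster of bin 1, had 11.8 CPM under cco-1 RNAi and 50.7 CPM under empty vector (0.233-fold, interval 0.192 to 0.281). C40A11.4 and C40A11.6, neighbours in bin 3, had 35.5 and 17.7 CPM under cco-1 RNAi, against 141 and 72.3 CPM under empty vector. These 2 genes and C32B5.18, at 31.3 CPM under cco-1 RNAi and 110 CPM under empty vector, carry no family name. What they encode was not examined. In the centre the pseudogene T02G5.4 had 76.9 CPM under cco-1 RNAi and 304 CPM under empty vector, and die-1 had 21.05 and 62.6 CPM. The others were fbxb-13, ZK930.6, ZK930.15 and C09D8.14. The lists of the marks shared C32B5.18 and C40A11.4.

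In bin 4 the lowest H3K18ac genes of that strength were C16C8.10, Y49F6B.13, sri-63 and C46E10.3, in bin 2 srg-20, ZC204.6, fbxb-39 and fbxb-53, and in bin 3 C40A11.4, K02F6.10, K02F6.11 and F22E5.2. For H3K27ac they were ephx-1, C41H7.3, B0454.12 and T24E12.1 in bin 4, fbxb-13, btb-7, ceh-81 and math-38 in bin 2, and C40A11.6, C40A11.4, F07E5.12 and F22E5.2 in bin 3. Some of these peaks lie away from their gene. That of fbxb-39 lay downstream, 5914 bp from the gene start, and that of ephx-1 4694 bp upstream. Of the 12 genes of each mark 2, C40A11.4 and F22E5.2, were named in both. C41H7.3 was the strongest of the H3K27ac list, with 88.5 CPM under cco-1 RNAi and 213 CPM under empty vector.

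The 10 largest rises in H3K18ac lay on the left arm for 4 genes, in the centre for 2 and on the right arm for 4, with folds between 2.03 and 2.46. The highest was Y46E12BR.2, a non-coding RNA gene in bin 16, with 163 CPM under cco-1 RNAi and 66.3 CPM under empty vector. The start of pod-2, which encodes acetyl-CoA carboxylase, had 53.0 CPM under cco-1 RNAi and 22.8 CPM under empty vector although it lies in bin 2. The start of cchl-1, which encodes cytochrome c heme lyase, had 52.4 CPM under cco-1 RNAi and 25.3 CPM under empty vector. The others were daf-5, Y46E12BL.9, C32D5.18, Y47G7B.2, nhr-88, clec-10 and rmo-1. The daf-5 peak lay 7709 bp upstream of that gene. All 10 were above 1 in the overlapping H3K27ac peak, 5 of them by at least 1.5-fold.

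In H3K27ac the 10 largest rises ran between 2.17-fold and 3.61-fold. The highest was inside glna-1, a glutaminase gene on the right arm, with 46.6 CPM under cco-1 RNAi and 12.9 CPM under empty vector (interval of the fold 3.01 to 4.36). The start of gcs-1, which encodes the first enzyme of glutathione synthesis, had 44.7 CPM under cco-1 RNAi and 18.7 CPM under empty vector, while the overlapping H3K18ac peak differed by a fold of 1.02. The peak upstream of tps-2, a trehalose phosphate synthase gene, had 72.5 CPM under cco-1 RNAi and 31.9 CPM under empty vector. The others were rmo-1, clec-10, ZK355.2, Y17G7B.8, 21ur-12205, T04B8.5 and F07A11.10. Both marks named rmo-1 and the lectin gene clec-10, whose upstream H3K18ac peak had 96.7 CPM under cco-1 RNAi and 47.1 CPM under empty vector. In the bins with the highest medians, the leading genes were Y46E12BR.2 and Y46E12BL.9 (bin 16), and daf-5 and Y54G11A.7 (bin 15) for H3K18ac. For H3K27ac they were 2RSSE.1 and Y46E12BR.2 (bin 16), and F07H5.3 and tomm-40, a subunit of the mitochondrial import channel with 42.3 CPM under cco-1 RNAi and 22.7 CPM under empty vector (bin 9).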

How the data were processed

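The authors deposited 1 table per mark, with 17331 lines for H3K18ac and 17877 for H3K27ac. Each line gives a peak, its nearest gene and a whole-number count per library, per the file headers. Per the submitters' processing notes the tools include MACS2 2.1.2, SAMtools 1.4.1, Bowtie2 2.3.5 and FastQC. How reads were filtered and counted, and whether peaks were called on pooled libraries, is not given in the sources used here. Being whole numbers with unequal totals, the values were treated as counts, although a rounded normalized unit would look alike. No input was subtracted.

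Repeated lines (119 and 111) were counted once, and 5 and 3 mitochondrial peaks were left out. Each count was scaled to 1000000 counts in the nuclear peaks of its library (CPM). Ratios carry no pseudocount, since the lowest counts are 5 and 18. A peak at least 1.5-fold off is called higher or lower; exact (Clopper-Pearson) 95% intervals cover counting error only. Named genes are the 10 largest rises and falls per mark, the 4 lowest genes of each lower bin, the 2 highest genes of the highest bins and the strongest peaks, all but the last of at least median strength. Members and lists were chosen with earlier results of these data known. The scripts were tested on simulated data. Gene densities come from the RefSeq table of WBcel235. Python 3.11.15, pandas 2.3.3 and scipy 1.17.1 were used.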

Additional observations from a re-analysis of the deposited data

Results flagged for a closer look

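On chromosome II, 5 of 2749 overlapping peak pairs passed 1.5-fold in opposite directions, higher in H3K18ac and lower in H3K27ac under cco-1 RNAi. Over all nuclear peaks 21 of 15026 pairs passed it in opposite directions, and the difference was not tested. Except at daf-5, the pairs on chromosome II lay below the median strength of all nuclear peaks in both marks. The H3K18ac log2 ratio exceeded that of H3K27ac by 1.98 at F54D10.5, by 1.81 at lir-3, by 1.59 at 21ur-12386, by 1.55 at pde-3 and by 1.38 at daf-5. At F54D10.5 in bin 4, H3K18ac had 97 counts under cco-1 RNAi and 55 under empty vector, and H3K27ac had 91 and 219. At daf-5, in another peak than the one named among the largest rises, H3K18ac had 1253 counts under cco-1 RNAi and 717 under empty vector, and H3K27ac had 171 and 274. Only 1 of the 5 pairs lay on the left arm.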

How the results depend on the processing

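Over 14 results and 100 alternatives, 68 values stayed within their limit, 32 moved and 0 reversed. A count, with a limit of 1.5 times its value, could not be called reversed. The lowest bin median, a minimum over bins, had little room to reverse. Without scaling, lower and higher H3K18ac peaks changed order, with 368 and 385 against 517 and 235. For medians and densities the limit was an interval over peaks made from 95% binomial limits. Where it joins 2 medians it is not an exact 95% interval. That interval treats peaks as independent and is neither counting error nor replicate error. Leaving out the scaling, or setting the median ratio of all nuclear peaks to 1, shifts every log2 ratio of a mark equally. Neither could change a difference between regions, and these outcomes are among the values that stayed. The left arm taken alone, peaks outside the 6 families and centring on strength were added after seeing the data.

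The chromosome's counts moved most: lower and higher H3K18ac peaks numbered 118 and 25 at a 2-fold threshold, 205 and 114 at median strength or above, and 318 and 133 within 1 kb of a gene start, and H3K27ac peaks 343 and 67, 207 and 100, and 582 and 132. Higher H3K18ac peaks numbered 140 with a pseudocount of 5 CPM and 385 without scaling, higher H3K27ac peaks 391 with the median ratio set to 1, and lower H3K27ac peaks 473 when centred on strength. The lowest bin median of H3K18ac became -0.41 in 2 Mb bins and -0.40 without scaling. That of H3K27ac became -1.03 in 0.5 Mb bins, -0.54 in 2 Mb bins, -0.42 when centred on strength or at median strength or above, and -0.45 with the median ratio set to 1. Outside the 6 families the H3K18ac difference to the centre was -0.040 for both arms and -0.18 for the left arm. That of H3K27ac was -0.037 and -0.15 from summed CPM, -0.053 and -0.20 at median strength or above, and -0.35 for the left arm within 1 kb of a start. The H3K18ac arms over centre ratio was 1.66 for CPM per kb of width, and 1.85 for the density of peaks at median strength or above. Beyond what each alternative leaves out by its construction, the cause was not tested. The left arm minus centre difference stayed below 0 in all alternatives run, including the changes of scale, which could not alter it. No paired analysis was possible because each group has 1 library. Without replicates the spread between libraries is unknown, and weak peaks, with the fewest counts, carry the widest counting error. Planned work on peak sequences was not run.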
